A study of Arabidopsis thaliana with 21 samples.

Results

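The cold response of the Arabidopsis thaliana camta1/2/3 triple mutant was described from 6 of the 21 arrays of the series: the 3 arrays labelled camta1/2/3 24h cold and the 3 labelled camta1/2/3 warm. The samples were chosen by their titles and by no measured value, and 22746 of the 22810 probe sets were compared, the other 64 being controls. Plants of all groups were of the Col-0 background, and the mutant carried mutations in CAMTA1, CAMTA2 and CAMTA3. Both groups were grown in soil at 22 °C for 3 weeks with 12 h of light a day, and the cold group then spent 24 h at 4 °C. Each array held RNA of the entire aerial part of plants, as a separate biological replicate. Wild type (WT) plants at both temperatures, 3 arrays each, were used to ask where the response of the mutant differed. The alleles are not named in the labels, and none of the mutated genes had a probe set named here, so the genotype was not checked on the arrays.

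CAMTA proteins are calmodulin-binding transcription activators, which link calcium signals to transcription. They are known as activators of the CBF genes in the cold and as repressors of salicylic acid defence in the warm. CBF factors in turn induce the COR genes, many of which encode hydrophilic proteins that protect membranes and enzymes during freezing and drying. The comparison shows which transcripts still changed at 4 °C in plants with these 3 genes mutated.

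Values are log2 levels as deposited, so a difference of 1 is 2-fold. Replicate 2 at 4 °C stood apart from the other cold arrays of the mutant. Its 3′ minus 5′ difference of the actin control was 4.25, against 2.67 and 2.41 in the other cold arrays and 2.75 to 3 in the warm ones, and that of GAPDH was 3.52 against 1.67 and 1.49. Its correlation with the other cold arrays was 0.9854 and 0.9841, and theirs with each other was 0.9907. The part of this array in the results was not tested, and for the genes described by name below, the adjusted p without it is given where their call ended. The leaf genes RCA and LHCB4.2 were measured, at 13.18 to 13.53 and 11.56 to 12.22 at 22 °C. Genes of lists and families count as measured only with a symbol or name beyond the locus, apart from chloroplast-encoded genes. Of the marker lists, 2 of 8 leaf genes, 1 of 8 root genes and 1 of 5 guard cell and phloem genes were so measured. None of the flower or seed markers was. In whole aerial parts, fewer cells of a type and less RNA per cell cannot be told apart. P-values set each difference against the spread between replicate arrays of this series. Unless stated otherwise, that spread was pooled over all arrays of the series, including groups not compared here.

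After 24 h at 4 °C, 2266 probe sets were higher and 2787 were lower in the triple mutant (limma, adjusted p under 0.05), which is 9.96% and 12.3% of those tested. Without replicate 2 at 4 °C the counts were 2188 and 2314. Most changes were modest. The median size was 0.87 among probe sets that rose and 0.84 among those that fell. The rises reached farther than the falls: 38 probe sets rose and 5 fell at least 16-fold, while 893 rose and 988 fell at least 2-fold. Of the probe sets that rose, 18.4% had a mean of 4 or lower at 22 °C, against 39.7% of all probe sets. Such means are close to the bottom of the scale at 2.17, where a difference is limited by that floor. The cold arrays lay wholly above the warm arrays for 13.4% of all probe sets and for 2080 of those called higher. They lay wholly below them for 16.0% of all and for 2589 of those called lower.

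**Figure D1:**
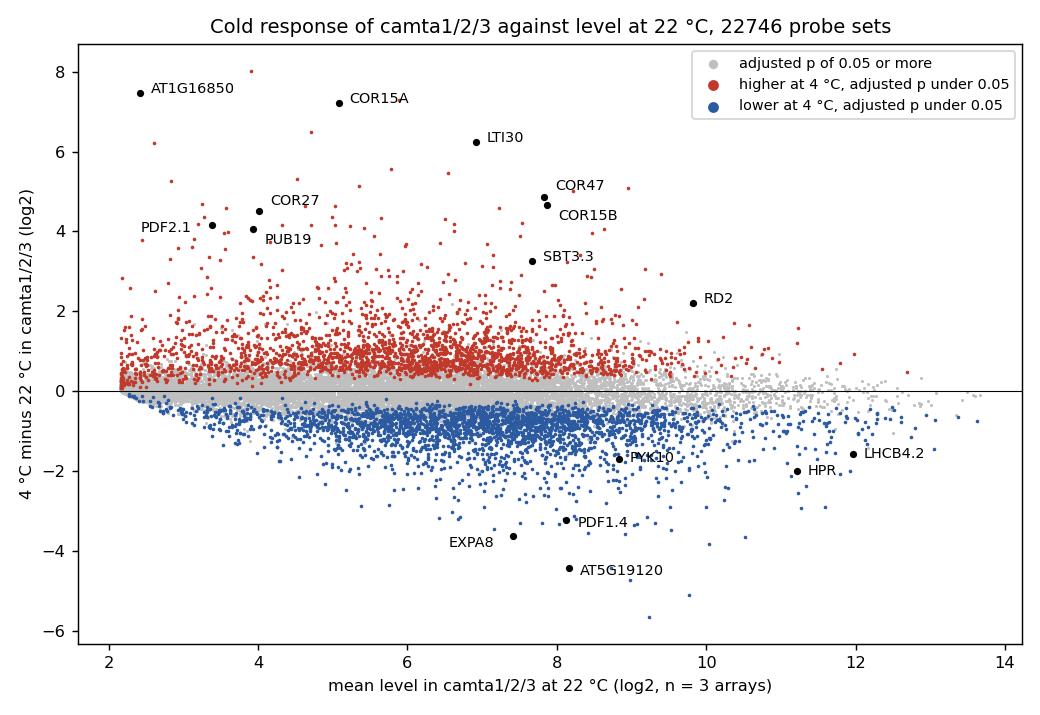
Difference between 4 °C and 22 °C in camta1/2/3 (log2) against the mean level at 22 °C (log2, 3 arrays), with 1 point for each of 22746 probe sets. Points in red (2266) and blue (2787) passed an adjusted p of 0.05, and the COR genes stand among the highest rises.

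The COR genes rose steeply. All 5 measured members of 18 in the COR and CBF regulon list rose, with a median of 4.87, whereas 8.96% of the 13355 genes named rose and their median was 0. Lists and families were drawn from the 1672 genes with a symbol or name beyond the locus, of which 183 rose and 267 fell. These are larger shares than the 8.96% and 11.6% of all genes named that are given beside counts below. COR15A, which encodes a chloroplast protein that protects membranes during freezing, stood at 4.55, 5.25 and 5.43 in the warm arrays and at 12.36, 12.05 and 12.49 in the cold arrays. These groups did not overlap, and the difference was 7.22 ± 0.56 (SE), or 149-fold, with an adjusted p of 3.81e-07. Its neighbour and close homologue COR15B was at 8.42, 7.0 and 8.2 in the warm and at 13.08, 12.44 and 12.09 in the cold, a difference of 4.66 ± 0.45. Homologous transcripts can bind the same probes, and this was not examined here. LTI30, a dehydrin, went from 6.32, 5.99 and 8.44 to 13.14, 13.32 and 12.99, a difference of 6.23 ± 0.75. Its warm replicate 3 was more than 2 above the other warm arrays, yet no warm array reached the cold ones. COR47, another dehydrin, went from 8.13, 7.12 and 8.23 to 13.14, 12.39 and 12.55, and COR27, a regulator of the clock and of freezing tolerance, from 4.1, 4.06 and 3.9 to 8.98, 8.95 and 7.68.

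Of 4 dehydrins 3 rose. The third was AT1G54410 (HIRD11), which was already at 11.88 to 12.14 in the warm and reached 12.71 to 13.0 in the cold, a difference of 0.92 ± 0.14. Some other genes named for cold, drought or salt were picked because they rose with non-overlapping groups. Genes with such names were not counted. RD2 rose by 2.22 ± 0.22, DI21 by 1.78 ± 0.16, SAT32 by 1.88 ± 0.24 and TIL, a temperature-induced lipocalin, by 1.68 ± 0.19. LEA4-5, a late embryogenesis abundant gene, rose by 1.55 ± 0.27 from 2.42 to 2.49, at the bottom of the scale. Of 5 measured genes of that family 1 rose and 1 fell, beside 8.96% and 11.6% of all genes named.

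Among regulators, HYH, a bZIP factor related to the light-signalling factor HY5, went from 6.05, 5.6 and 6.16 to 8.93, 9.06 and 8.84. The groups were far apart, with a difference of 3.01 ± 0.29 and an adjusted p of 3.23e-06. STZ, a zinc finger repressor also called ZAT10, was the 1 measured gene of 13 listed early cold-induced factors. It rose by 1.62 ± 0.42 (adjusted p = 0.0107), and without replicate 2 at both temperatures its adjusted p was 0.1083. GI, a clock gene, rose from 9.48 to 9.73 in the warm to 10.17 to 10.63 in the cold. EIN3, the 1 measured gene of 11 CBF regulators, differed by -0.11 and was not called.

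**Figure D2:**
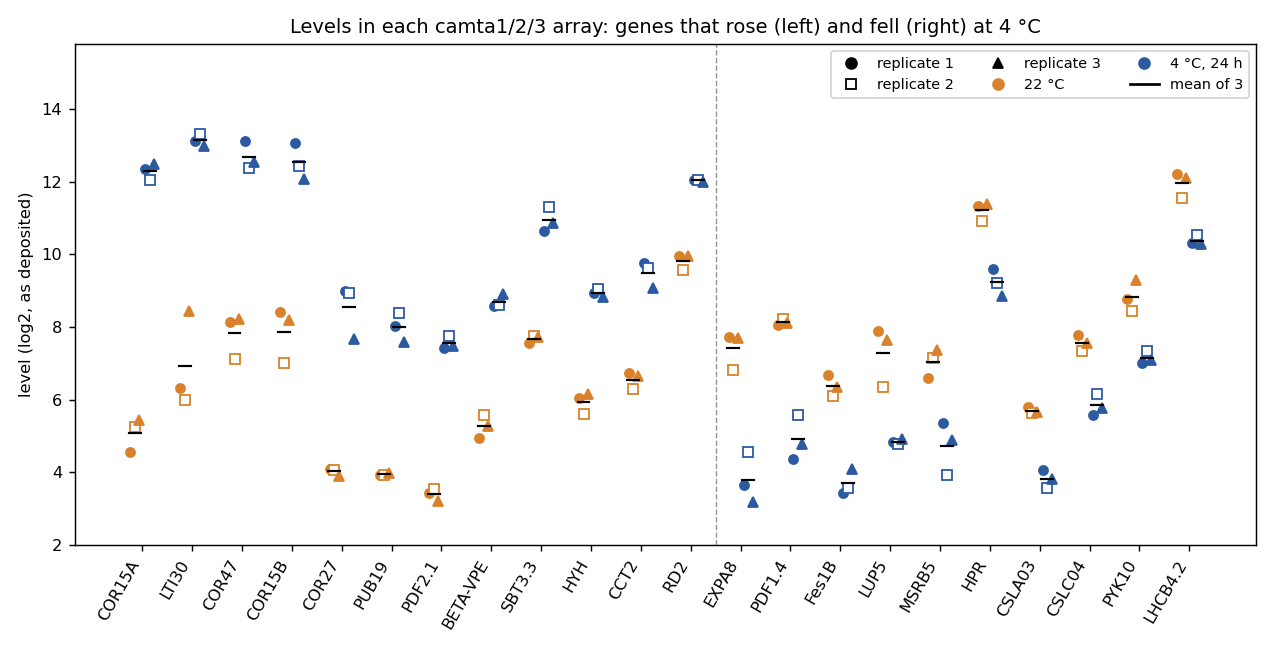
Level (log2) of 22 genes in each of the 6 camta1/2/3 arrays, with 3 points at 22 °C, 3 at 4 °C and a bar at each mean. Open squares are replicate 2, and for each gene shown the arrays at 4 °C lie wholly on one side of those at 22 °C. Genes named as the largest rises or falls were chosen among those whose groups did not overlap.

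The largest rise, 8.01, was on a probe set without a named gene, and other large rises were of genes that the annotation used here gives no symbol. AT1G16850 went from 2.18, 2.35 and 2.72 to 10, 9.84 and 9.78, a difference of 7.46 ± 0.31. AT3G55580 rose by 5.3 ± 0.22, AT1G48100 by 5.26 ± 0.24, AT2G43620 by 5.13 ± 0.55, AT5G62360 by 4.63 ± 0.38, AT4G01870 by 4.6 ± 0.6 and AT1G80130 by 4.36 ± 0.26. Genes named as the largest rises or falls were chosen among those whose groups did not overlap. That all 3 cold arrays lay above all 3 warm arrays in each of them follows from this choice. Among genes with a mean of at least 6 at both temperatures, AT5G15950 rose by 4.19 ± 0.31 and AT4G30650 by 3.68 ± 0.36.

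The named genes with the largest rises included a defensin, a ubiquitin ligase and proteases. PDF2.1, a plant defensin, went from 3.42, 3.53 and 3.22 to 7.42, 7.75 and 7.48, a 17.9-fold difference with no overlap. Of 10 defensins measured 3 rose, the other rises being LCR69 (2.18 ± 0.29) and LCR68 (0.97 ± 0.15), and 1 fell, where 8.96% of all genes named rose and 11.6% fell. Of 9 U-box ligases 2 rose and none fell, and of 7 subtilases with a symbol 1 rose and none fell. PUB19, a U-box ubiquitin ligase, went from 3.92, 3.92 and 3.99 to 8.03, 8.39 and 7.59. BETA-VPE, a vacuolar processing protease, rose by 3.43 ± 0.15, and SBT3.3, a subtilase, by 3.26 ± 0.6. The neighbour of SBT3.3, AT1G32950, is also a subtilase but has no symbol here and was not among the 7. It went from 2.17, 2.17 and 2.19 to 4.7, 5.33 and 5.0. The protease inhibitors CYS1, a cystatin, and SERPIN1 rose by 2.04 ± 0.22 and 1.91 ± 0.16, and the chitinase ChiC by 2.09 ± 0.44.

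Enzymes and transporters of several pathways rose. UGT78D2, a glycosyltransferase of flavonoids and anthocyanins, went from 6.67, 6.54 and 6.71 to 9.61, 9.37 and 9.31, a difference of 2.79 ± 0.14. It was the 1 called member of 4 measured genes of 15 in the flavonoid list. The other 3 were not called, and of them DFR, which makes anthocyanin precursors, differed by 0.07 ± 0.36. Outside this list the chalcone isomerase-like gene CHIL rose by 1.7 ± 0.2. UGT78D3 and UGT78D1, glycosyltransferases named in the same series, rose by 1.56 and 1.17. On the 6 arrays alone the adjusted p of UGT78D3 was 0.107. CCT2, an enzyme that activates phosphocholine for phosphatidylcholine synthesis, rose by 2.94 ± 0.24, whereas PMEAMT, a methyltransferase of an earlier step of phosphocholine synthesis, fell by 1.55 ± 0.28. NDB2, an alternative NAD(P)H dehydrogenase of mitochondria, rose by 1.96 ± 0.2, GR1, a glutathione reductase, by 1.91 ± 0.18, and TMT2, a sugar transporter of the tonoplast, by 1.84 ± 0.22. The nitrate and peptide transporter family genes AT3G21670 (NPF6.4) and AT1G68570 (NPF3.1) rose by 2.21 ± 0.23 and 1.46 ± 0.22. Of the 11 measured genes of that family 3 rose and 1 fell, GTR2, a glucosinolate transporter, with a difference of -0.9 (adjusted p = 0.0404), beside 8.96% and 11.6% of all genes named. The adjusted p of GTR2 was 0.09422 without replicate 2 at 4 °C, and between 0.05902 and 0.1129 without each of the other 5 arrays of the mutant in turn. PMEAMT missed the threshold on the 6 arrays alone (adjusted p = 0.1119).

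Sugar exporters of the SWEET family moved both ways. Of 16 measured 5 rose and 2 fell, beside 8.96% and 11.6% of all genes named. One of the rises, SWEET6, was from 2.18 to 2.26 at the bottom of the scale (adjusted p = 0.043), and its adjusted p was between 0.07747 and 0.1837 without each of warm replicates 1, 2 and 3 and cold replicates 1 and 3 in turn. Without replicate 2 at 4 °C 6 of the calls in this family remained. SWEET4 went from 2.93, 2.93 and 3.23 to 4.66, 4.82 and 4.82, and SWEET1 from 7.16, 6.77 and 7.13 to 9.23, 7.88 and 8.4. SWEET17, a fructose transporter of the tonoplast, fell from 6.85 in each warm array to 5.62, 5.88 and 5.54. SWEET2 and SWEET13 rose by 1.2 ± 0.29 and 1.34 ± 0.31, and without replicate 2 at both temperatures their adjusted p were 0.08768 and 0.08304. On the 6 arrays alone SWEET1, SWEET2 and SWEET13 missed the threshold, with adjusted p of 0.0887, 0.1254 and 0.1696.

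Genes of ribosome synthesis rose by small amounts. All 4 measured members of 14 in the ribosome biogenesis and RNA polymerase list rose, with a median of 0.76. Of 12 subunits of nuclear RNA polymerases 6 rose and none fell, where 8.96% of all genes named rose. Without replicate 2 at 4 °C 5 of the 6 calls of subunits and 3 of the 4 calls of listed genes remained. NRPA2, a large subunit of RNA polymerase I, went from 7.41, 7.61 and 7.52 to 8.46, 8.19 and 8.76. NRPB7, a subunit of RNA polymerase II, rose by 1.04 ± 0.17, and PRH75, an RNA helicase of the nucleolus, by 0.82 ± 0.17. On the 6 arrays alone 1 of the 6 calls of subunits and 1 of the 4 calls of listed genes remained. The adjusted p of PRH75 on these arrays was 0.1092. NRPA1, the other large subunit of RNA polymerase I, rose by 0.7 ± 0.23 (adjusted p = 0.0423) with overlapping groups, and the adjusted p was 0.1952 without replicate 2 at 4 °C and 0.1237, 0.1009, 0.05477 and 0.1014 without warm replicates 1, 2 and 3 and cold replicate 3. AT5G14520 (PESCADILLO) rose by 0.64 ± 0.2, also with overlap, and its adjusted p was 0.07564, 0.1214 and 0.1355 without warm replicates 1 and 2 and cold replicate 1.

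Genes of photosynthesis were lower in the cold. Of 13 light-harvesting and photosystem genes of the nucleus 8 fell and none rose, with a median of -0.89, beside 11.6% of all genes named that fell. LHCB4.2, an antenna protein of photosystem II, went from 12.22, 11.56 and 12.1 to 10.31, 10.53 and 10.3, a difference of -1.58 ± 0.17 with no overlap. PSAN, a subunit of photosystem I, fell by 1.23 ± 0.17, and LPA2, which assists photosystem II assembly, by 1.27 ± 0.25. HPR, the hydroxypyruvate reductase of photorespiration, went from 11.34, 10.93 and 11.4 to 9.61, 9.21 and 8.86. RCA, which activates Rubisco, fell by 0.64 ± 0.14 (adjusted p = 0.09893 on the 6 arrays alone), and SBPASE of the Calvin cycle differed by -0.35 ± 0.15 (adjusted p = 0.12). PRK, another Calvin cycle enzyme, differed by -1.01 ± 0.28 with overlapping groups, and its adjusted p was 0.09166, 0.08034, 0.06242 and 0.06949 without warm replicates 1 and 3 and cold replicates 2 and 3. Without replicate 2 at 4 °C 6 of the 8 calls of photosystem genes remained, and on the 6 arrays alone 3 did. The adjusted p of the light-harvesting-like genes LIL3:1 and LIL3:2 without that replicate was 0.1453 and 0.06811. None of 69 chloroplast-encoded genes was called by limma, 5 had an unadjusted p under 0.05, and their median was 0.17.

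Genes of wall-modifying families moved both ways. EXPA8, an expansin that loosens walls, went from 7.73, 6.83 and 7.71 to 3.64, 4.55 and 3.19, a difference of -3.63 ± 0.43 with no overlap. Of 19 expansins 3 fell and 3 rose, beside 11.6% and 8.96% of all genes named, EXPA4 falling by 1.3 ± 0.18 and EXLA2 rising by 1.95 ± 0.16. GH9B13, a glycosyl hydrolase, fell by 1.9 ± 0.29. CSLA03 and CSLC04, of the cellulose synthase-like families that make mannan and the xyloglucan backbone, went from 5.62 to 5.81 down to 3.57 to 4.05 and from 7.34 to 7.79 down to 5.58 to 6.15. Of 10 xyloglucan endotransglucosylase/hydrolases 2 rose and 2 fell (3 of these calls remained without replicate 2 at 4 °C), with XTH20 at 1.82 ± 0.16 and XTH16 at -1.22 ± 0.21.

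**Figure D3:**
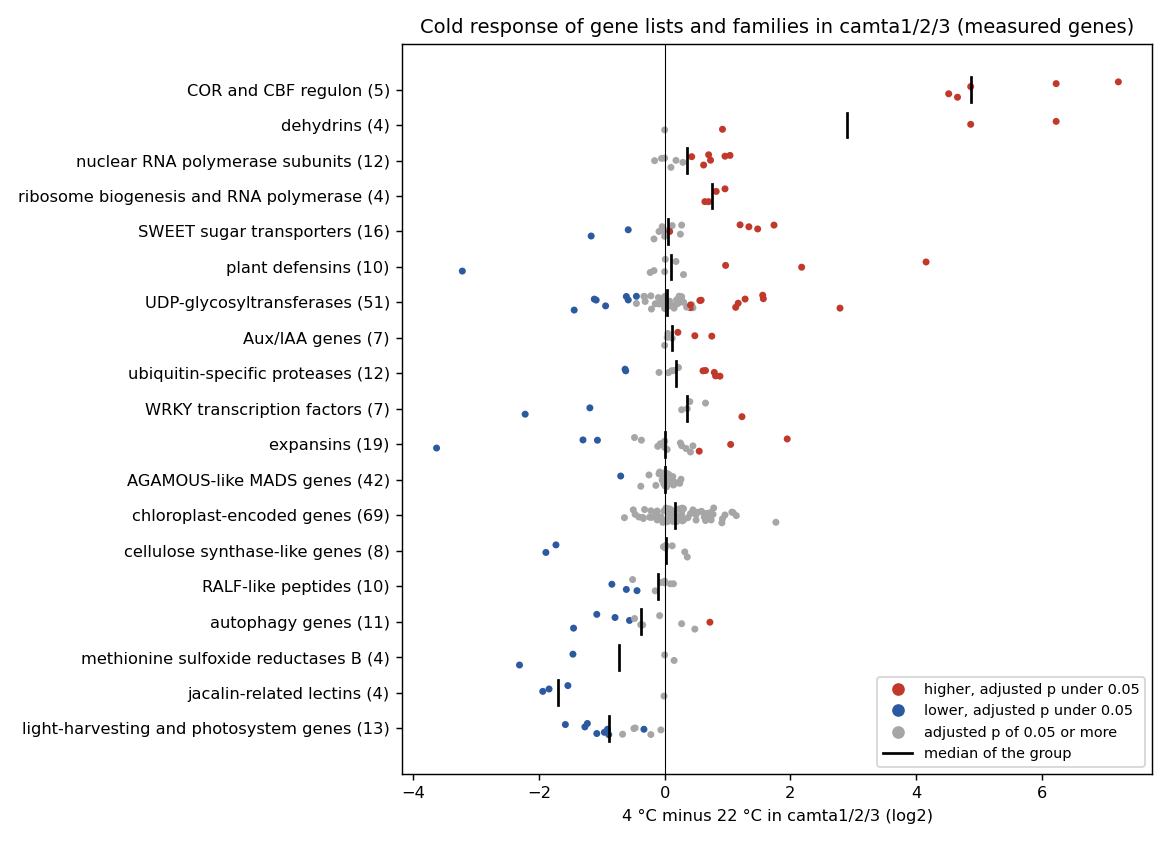
Difference between 4 °C and 22 °C in camta1/2/3 (log2) of the measured genes of 19 lists and families, with the number measured in brackets. Each point is a gene, red for higher and blue for lower at an adjusted p under 0.05, and the bar is the median, which is 4.87 for the COR and CBF regulon and -0.89 for the light-harvesting and photosystem genes.

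PYK10 and NAI2, genes of ER bodies, fell in the mutant. ER bodies are compartments of the endoplasmic reticulum that store beta-glucosidases. PYK10, their main beta-glucosidase and the 1 measured gene of the root marker list, went from 8.76, 8.44 and 9.29 to 7.0, 7.34 and 7.08, a difference of -1.69 ± 0.31. NAI2, which is needed to form ER bodies, fell by 1.77 ± 0.34. Of 4 jacalin-related lectins 3 fell, JAL34 by 1.94 ± 0.43, JAL33 by 1.84 ± 0.48 and JAL22 by 1.54 ± 0.29. The other lectin differed by -0.01 in the mutant but was called lower in WT, and its interaction was called. Without warm replicate 3 the adjusted p of JAL33 was 0.06606, and on the 6 arrays alone that of JAL22 was 0.08785. Of all genes named 11.6% fell. JAL33 and JAL34 are adjacent homologues. Both measured genes of 18 listed for glucosinolate synthesis also fell, BCAT4 of methionine chain elongation by 1.57 ± 0.24 and the glucosyltransferase UGT74B1 by 1.09 ± 0.16. On the 6 arrays alone their adjusted p were 0.05527 and 0.06128.

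Other named genes with large falls had varied roles. PDF1.4, a defensin, went from 8.05, 8.23 and 8.12 to 4.37, 5.58 and 4.79, opposite in direction to PDF2.1. LUP5, a triterpene synthase, went from 7.89, 6.34 and 7.63 to 4.83, 4.78 and 4.92. MSRB5 and MSRB6, adjacent genes of methionine sulfoxide reductases, fell by 2.31 ± 0.35 and 1.46 ± 0.27. MCCA, a subunit of the carboxylase of leucine breakdown, fell by 2.06 ± 0.22, GSTU27, a glutathione S-transferase, by 2.08 ± 0.26, and AKINBETA1, a subunit of the SnRK1 kinase, by 1.85 ± 0.2. AT5G61590 (DEWAX), a repressor of wax synthesis, fell by 1.99 ± 0.36, with an adjusted p of 0.06521 on the 6 arrays alone. Of genes without a symbol, AT5G19120 fell by 4.43 ± 0.26, AT1G62480 by 3.59 ± 0.28, AT4G27450 by 3.49 ± 0.29 and AT3G26510 by 3.36 ± 0.15. They were chosen among genes whose groups did not overlap.

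Genes of immunity, protein folding and autophagy gave smaller counts. Of 6 measured genes of 16 listed for pattern-triggered immunity 2 rose and 1 fell, beside 8.96% and 11.6% of all genes named. WRKY53, a transcription factor of senescence and defence, was at 7.28, 7.2 and 7.43 in the warm and at 3.96, 5.86 and 5.44 in the cold. Its difference of -2.22 ± 0.68 had an adjusted p of 0.0291, and of 0.07011, 0.05786, 0.07851 and 0.1271 without warm replicates 1, 2 and 3 and cold replicate 1. The kinase BIK1 rose by 0.52 ± 0.1 and the ligase PUB22 by 0.92 ± 0.17, with adjusted p of 0.06486 and 0.139 on the 6 arrays alone. Of 4 measured genes of 13 listed for folding in the endoplasmic reticulum 2 fell: ATERDJ3B, a co-chaperone, by 1.55 ± 0.2 and CRT1b, a calreticulin, by 0.61 ± 0.2. Without replicate 2 at 4 °C the adjusted p of CRT1b was 0.1458, and it was 0.107, 0.1242 and 0.09239 without warm replicates 1 and 3 and cold replicate 3. The stress-response factors BZIP60 and BZIP28 differed by 0.69 and -0.44 and were not called. Of 11 autophagy genes 4 fell and 1 rose, beside 11.6% and 8.96% of all genes named, ATG8E by -1.45 ± 0.28 and ATG8F by -1.08 ± 0.23. Without replicate 2 at 4 °C 3 of these calls remained. The 1 rise, ATG8B, then had an adjusted p of 0.1818, and of 0.1051 and 0.1058 without warm replicates 1 and 3. APG8A then had 0.09659, and 0.09417, 0.1098 and 0.1189 without warm replicates 1 and 3 and cold replicate 3. On the 6 arrays alone none of the autophagy calls remained by limma. Over all arrays 8 of the 11 had an unadjusted p under 0.05. The measured salicylic acid genes, SAG101 and GRX480, differed by -0.27 and 0.45 and were not called.

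The question of where the response of the mutant differed from that of WT was tested as an interaction. It was called for 447 probe sets, 1.97% of those tested, 254 (1.12%) with a higher and 193 (0.849%) with a lower difference in the mutant. In WT itself 2259 probe sets (9.93%) rose and 2991 (13.1%) fell. Both comparisons draw on the same fit of all arrays. The 3′ minus 5′ difference of actin was 2.07 to 2.46 in warm WT, against 2.75 to 3 in the warm mutant. It was 1.57 to 2.71 in cold WT, the highest in replicate 2, against 2.41 to 4.25 in the cold mutant. The part of this difference in the interaction was not tested. With it as a covariate the interaction was called for 431 probe sets. Of the 2266 probe sets that rose in the mutant, 126 rose more than in WT and 32 less, and of the 2787 that fell, 101 fell more and 42 less. Choosing probe sets by the mutant's own response favours larger responses in the mutant. The COR genes LTI30 and COR47 rose by 5.86 and 4.47 in WT, and their interactions of 0.37 ± 1.06 and 0.4 ± 0.63 were not called. Of the 447, 301 were also called in the mutant's response. Among these 301 the genotypes were farther apart at 22 °C for 157 and at 4 °C for 144, and the response had opposite signs for 119. WT was called in the same direction for 108 of the 301, in the opposite direction for 25 and not at all for 168.

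**Figure D4:**
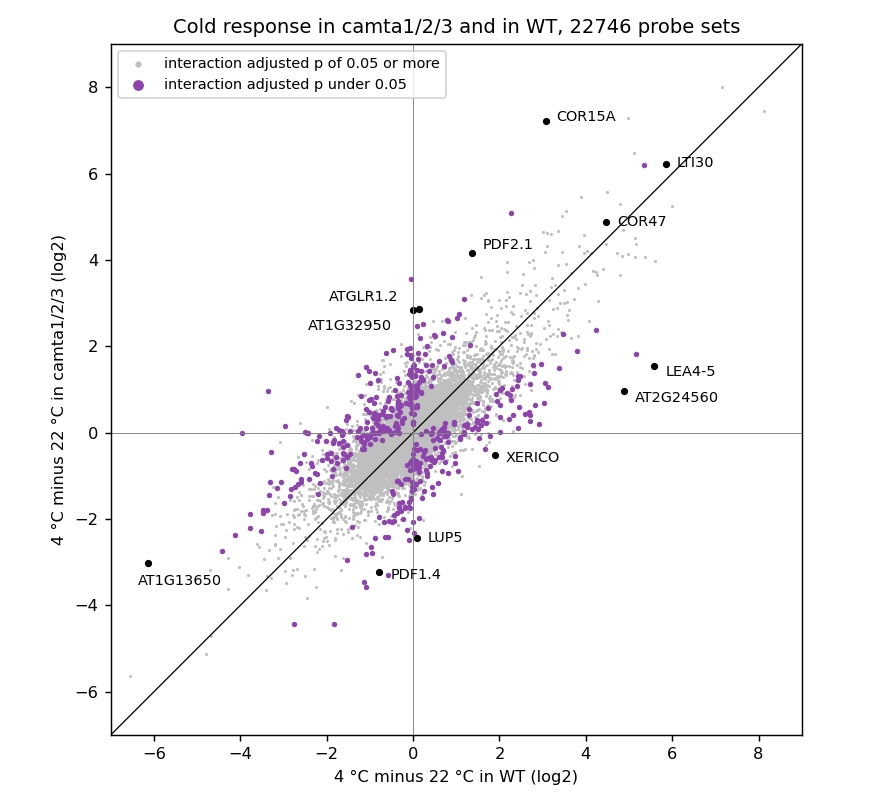
Difference between 4 °C and 22 °C (log2) in camta1/2/3 against that in WT, with 1 point for each of 22746 probe sets and a line where both are equal. Purple points are the 447 with an interaction at an adjusted p under 0.05, and COR15A lies above the line at 7.22 in camta1/2/3 and 3.07 in WT.

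Some genes differed between genotypes more in the warm than in the cold. COR15A was at 9.81, 8.85 and 8.33 in warm WT, above all warm arrays of the mutant, and at 12.45, 12.56 and 11.2 in cold WT, which overlapped the mutant. The interaction was 4.15 ± 0.8 (adjusted p = 0.0129). PDF1.4 was at 5.0, 5.03 and 4.93 in warm WT, below the mutant, and at 3.95, 4.33 and 4.34 in cold WT, just below the cold mutant, and its interaction was -2.44 ± 0.39 (adjusted p = 0.00422). ATIM (TIMELESS) went from 6.9, 7.3 and 6.8 to 5.0, 5.06 and 4.92 in the mutant and stayed between 4.66 and 5.4 in WT. LUP5 was between 4.65 and 5.28 in the WT arrays, where the warm mutant reached 6.34 to 7.89. AT1G13650 fell from 9.37 to 10.02 in warm WT to 3.65 in cold WT and by 3.03 ± 0.22 in the mutant, which started lower.

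Other genes differed more in the cold than in the warm. LEA4-5 was at 2.42 to 2.61 in warm WT and at 8.85, 7.44 and 7.94 in cold WT, against 3.5, 3.96 and 4.52 in the cold mutant, an interaction of -4.04 ± 0.38 (adjusted p = 3.94e-05). AT2G24560 was at 2.17 in all 6 warm arrays and reached 5.92 to 7.81 in cold WT and 2.66 to 3.5 in the cold mutant. The mutant's own difference of 0.96 ± 0.32 had an adjusted p of 0.0461, and of 0.1019, 0.09206, 0.1004, 0.1114 and 0.1576 without warm replicates 1, 2 and 3 and cold replicates 2 and 3. PDF2.1 reached 5.07, 4.21 and 5.25 in cold WT and 7.42 to 7.75 in the mutant, an interaction of 2.8 ± 0.31 (adjusted p = 0.000205). AT1G32950 remained at 2.17 in all WT arrays. ATGLR1.2, a glutamate receptor-like channel, went from 5.7, 5.63 and 5.62 to 8.15, 9.34 and 8.08 in the mutant and lay between 4.27 and 5.38 in WT. CML37, a calmodulin-like protein, rose by 2.61 ± 0.22 in the mutant and by 0.79 in WT.

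The responses of XERICO and HCT had opposite signs in the genotypes. XERICO, a RING protein that raises abscisic acid levels, rose in WT from 6.87, 6.7 and 6.3 to 8.62, 8.47 and 8.47, and in the mutant it was at 7.42, 6.79 and 7.18 in the warm and at 6.72, 6.69 and 6.45 in the cold. The interaction was -2.41 ± 0.24 (adjusted p = 7.47e-05). The mutant's own difference of -0.51 ± 0.17 had an adjusted p of 0.0457, and of 0.2012, 0.1172, 0.0624, 0.07079 and 0.1467 without warm replicates 1 and 3 and cold replicates 1, 2 and 3. HCT, an enzyme of lignin synthesis, fell in WT by 1.09 and was higher by 0.54 ± 0.16 in the mutant, where the adjusted p was 0.0211, and 0.07153, 0.05138, 0.08612 and 0.05464 without warm replicates 1 and 2 and cold replicates 1 and 3.

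**Figure D5:**
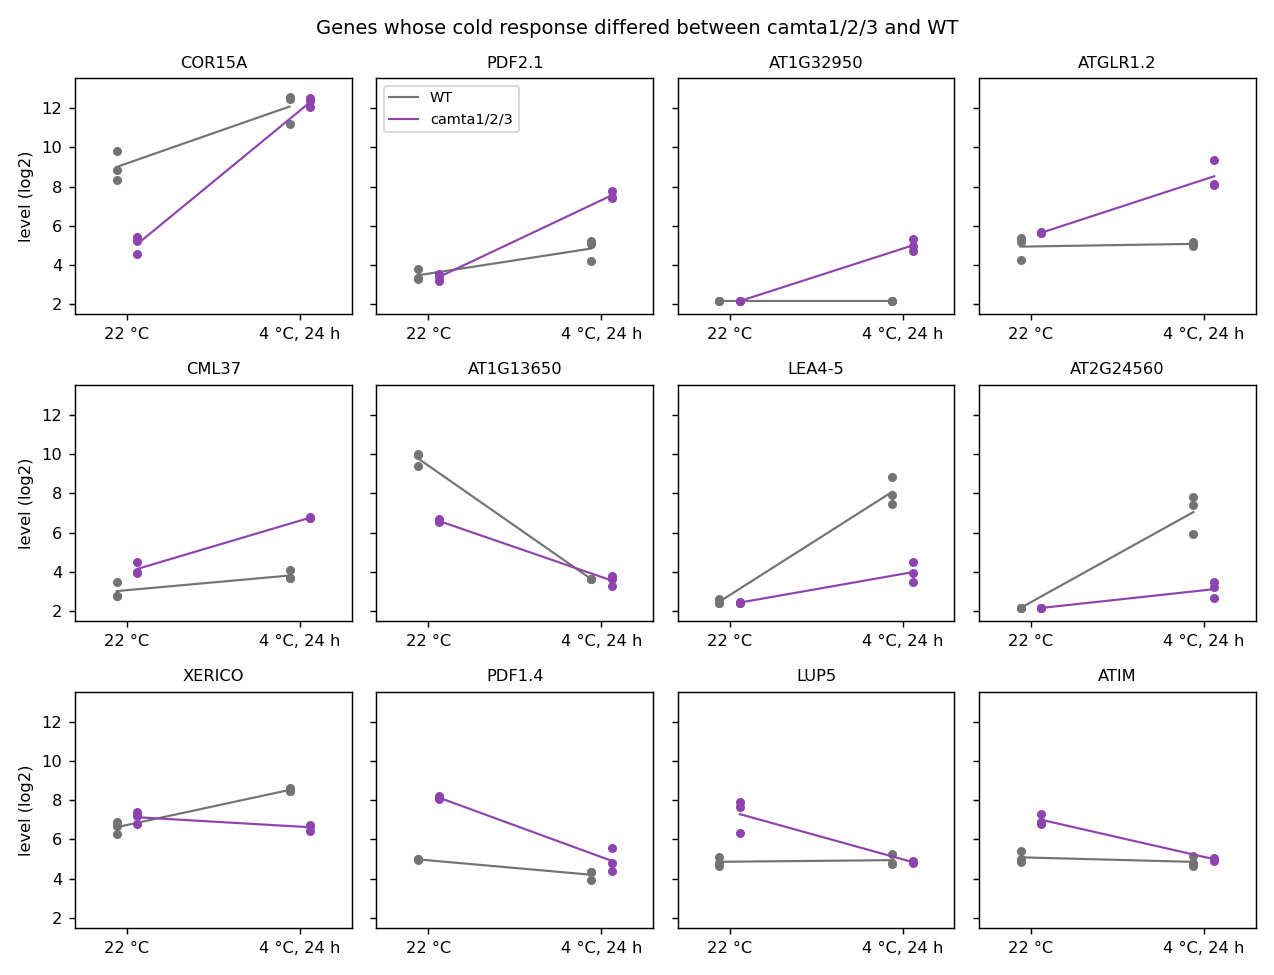
Level (log2) of 12 genes in WT (grey) and camta1/2/3 (purple) at 22 °C and after 24 h at 4 °C, with 3 arrays per group and lines joining the means. COR15A, PDF1.4, LUP5 and ATIM differed between genotypes at 22 °C, and LEA4-5, AT2G24560, PDF2.1 and AT1G32950 at 4 °C.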

How the data were processed

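Per the labels' protocols, RNA came from RNeasy kits and was amplified and biotinylated with MessageAmp before hybridization. The table the authors deposited holds log2 values normalized with GCRMA, and limma was also used, per the submitters' processing notes; neither version is given. The deposited log2 values ran from 2.17 to 14.27 and held no detection calls. All 21 columns were matched to samples by name.

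A model of 7 group means was fitted to the 21 arrays with limma 3.58.1 (R 4.3.3), with 14 residual and 0.954 prior degrees of freedom. Differences were tested two-sided, with Benjamini-Hochberg adjustment over 22746 probe sets and no filter on low values. Calls were made at an adjusted p under 0.05. SE is the model's standard error, and 3 arrays per group limit the precision.

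Genes were named from a probe table. Of the 14016 probe sets in it, 13513 had 1 gene and 503 several. The other 8730 were tested unnamed. A gene with several probe sets (147 of 13355) is given by that with the highest mean. Of 345 entries of 28 lists, 51 were measured, which here meant having a symbol or name beyond the locus. Entries not measured in this sense may still be on the array. Genes named by rule were the 12 largest rises and 12 largest falls of 1 gene without overlap, 6 and 6 with a lower mean of at least 6, up to 4 called members of a list, 5 and 5 interactions and 4 COR genes. The text gives a part of them. It also describes further genes, XERICO, HCT, NAI2 and GR1 among them, that were chosen by no fixed rule after values were seen. Members and lists were chosen with earlier results of these data known. The 46 families and the 20 largest rises and falls among genes with a symbol were chosen after values were seen.

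Residuals of mutant arrays with the same number correlated weakly between temperatures (0.1, 0.08 and 0.04). Over the series, 16 of 21 arrays had their closest residuals outside their group with an array of their own number. The main model has no term for replicate number, so spread shared by a number was not removed. In simulated data with the layout of this comparison, with 200 of 22746 probe sets changed, the fit called 44.8% of those changed by 0.5, 77.6% of those by 1 and 97.0% of those by 2 (log2), and made 8 false calls. In the real comparison 22.2% of probe sets were called, and the simulation shuffled residuals over all 21 arrays. These shares therefore check the fit and do not give the power of the real comparison. Alternatives were other normalizations, filters, variance settings, call rules, a block, the actin difference as a covariate and leaving out arrays. For lists and families, counts of calls that remained cover only members called in the main fit.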

Additional observations from a re-analysis of the deposited data

Results flagged for a closer look

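Each result here is a cold response that differed between camta1/2/3 and WT by the interaction test (limma, adjusted p under 0.05), among the genes named. Values are the response of the mutant minus that of WT (log2).

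The interaction was positive for COR15A (4.15), AT1G13650 (3.1), AT1G32950 (2.83), PDF2.1 (2.8), ATGLR1.2 (2.73), CML37 (1.82), HCT (1.62), XTH20 (1.55), EXPB1 (1.52), SWEET17 (0.99) and GSTU18 (0.79). It was negative for LEA4-5 (-4.04), AT2G24560 (-3.92), LUP5 (-2.53), AT1G72060 (-2.48), PDF1.4 (-2.44), XERICO (-2.41), ATIM (-1.78), AT5G19120 (-1.67), AT1G22890 (-1.41) and APG8A (-1.16), an autophagy gene. Positive values include smaller falls in the mutant, as for AT1G13650, EXPB1, SWEET17 and GSTU18.

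The call was lost without a single array for 7 of these genes. It was lost in 10 of 12 such fits for SWEET17 (highest adjusted p = 0.0889), in 8 for AT1G72060 (0.09157), in 7 for GSTU18 (0.111) and APG8A (0.07796), in 5 for AT1G22890 (0.07571), in 4 for AT5G19120 (0.07312) and in 3 for LUP5 (0.06025). For LUP5 these were the fits without WT warm replicate 2 and without camta1/2/3 warm replicates 1 and 3, and for AT5G19120 the same 3 and that without camta1/2/3 cold replicate 2. On the 12 arrays compared alone, the call of ATGLR1.2 was also lost (adjusted p = 0.0561). The highest adjusted p of COR15A without 1 array was 0.0379.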

How the results depend on the processing

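The count of 5053 probe sets called in camta1/2/3 moved to 2684 with 1 probe set per gene, 2447 on its 6 arrays alone, 1881 at 2-fold and 3110 at an adjusted p under 0.01. The WT count of 5250 moved to 2835, 3131, 2038 and 3306 under the same settings, and the 447 interactions to 210, 188, 297 and 134. Fewer probe sets enter with 1 per gene, and fewer arrays share the spread when other groups are left out. Without 1 array the counts ran from 3909 to 4663 for camta1/2/3, from 4206 to 4794 for WT and from 275 to 555 for the interaction, the 275 without WT warm replicate 2, where the cause was not tested. Leaving out replicate 2 of camta1/2/3 at both temperatures, an alternative chosen after seeing the data, gave 4397 in camta1/2/3. With the replicate number as a block it was 5349, and the calls of ATG8B and AT2G24560 were lost (limma, adjusted p = 0.05202 and 0.05859). Of the 21 arrays, 16 had their closest residuals outside their group with an array of their own number. The share of calls that were higher was 44.8%, 46.2% after quantile normalization and 50.8% after centring. No named gene changed direction under an alternative. Over all named genes and alternatives 2618 values kept their side of the threshold, 202 lost the call and 3 gained it. Shares of promoters with motifs were not run, since no promoter sequences were used here. Of the named genes 143 were called over all arrays and 100 on the 6 arrays alone.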

Other observations

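Rises and falls were spread over the chromosomes. Between 7.93% and 10% of the named genes of a chromosome rose in the mutant, and between 10.6% and 12.1% fell. Of 5813 pairs of measured genes that are adjacent in the annotation, 68 pairs rose together and 118 fell together. The neighbour of a gene that rose had also risen in 12.2% of cases, against 9.61% of all genes in pairs, and for falls the shares were 16.1% and 12.6%. COR15B with COR15A, JAL33 with JAL34, and MSRB5 with MSRB6 are such pairs of homologues. Genes that rose had a median length of 2484 bases in the annotation, those that fell 2201 and all named genes 2105.

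Called counts of some families are given here, beside 8.96% of all genes named that rose and 11.6% that fell. Differences among families were not tested, and members near the bottom of the scale can hardly be called. Of the 1672 genes with a symbol or name beyond the locus, from which families were drawn, 183 rose and 267 fell. Of 42 AGAMOUS-like MADS genes 1 fell and none rose, but only 9 had a mean over 4 at either temperature. Of 28 genes with CYP names, which include cyclophilins beside cytochromes P450, 4 fell and none rose, and 16 had such a mean. Of 51 UDP-glycosyltransferases 10 rose and 7 fell, and 30 had such a mean. Of 12 ubiquitin-specific proteases 5 rose and 2 fell, and of 13 ubiquitin-conjugating enzymes 3 rose and none fell, with UBC18 highest at a difference of 1.03. Of 10 RALF-like peptides, which are secreted signals, 3 fell and none rose.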
